A study of Mus musculus with 13 samples.

Results

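Small leucine-rich proteoglycans are secreted matrix proteins built of leucine-rich repeats, and 8 of their genes were followed here: Bgn, Dcn, Aspn, Lum, Fmod, Prelp, Omd and Ogn. They are 8 of the 54532 genes counted in RNA of YUMM1.7, a mouse melanoma cell line. The set was picked from the measured values of these same libraries, because Bgn was among the genes that rose most and Ogn among those that fell most in total RNA. The total RNA changes of the set are therefore given as a description and carry no test.

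The study asked how RNA editing and double-stranded RNA respond to ADAR1i-124, a small-molecule inhibitor of the RNA-editing enzyme ADAR1, and to 5-AZA-CdR (decitabine), a nucleoside that blocks DNA methylation. All cells were wild type. Cells received DMSO as vehicle control, ADAR1i-124 at 10 μM for 12 h, 5-AZA-CdR at 1 μM for 72 h, or 5-AZA-CdR + ADAR1i-124. The labels do not give the ADAR1i-124 dose of the combination; the study's supplement describes 10 μM added for 12 h after the 5-AZA-CdR, and 1 μM as a second dose. RNA was sequenced as total RNA or after precipitation with J2, an antibody to double-stranded RNA, with Z22, an antibody to Z-form RNA, or with IgG as control antibody, for which the treatment of the cells is not stated. There was 1 library per condition: 4 of total RNA, 4 of J2, 4 of Z22 and 1 of IgG. The total RNA library of 5-AZA-CdR + ADAR1i-124 was left out of the comparisons because its counts follow the other strand, so 12 libraries were compared.

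With no replicates, no value below has a replicate error, and no difference between treatments could be tested. The intervals are 95% intervals for counting error only, and in bulk RNA fewer cells of a type and less RNA per cell cannot be told apart. The J2 and Z22 libraries of a treatment may come from the RNA pool of its total RNA library and are not replicates of it. Total counts were 17015425 to 34571822 in the total RNA libraries used and 8167960 to 15324595 in the precipitated ones, so that 3 counts, the smallest number taken as detected, correspond to 0.0868 to 0.367 CPM (counts per 1000000 counts of the library). Of 7 melanocyte genes, Mitf, the melanocyte transcription factor, lay at 9.68 to 33.1 CPM in the 12 libraries, whereas Tyr and Tyrp1, which make melanin, were at 0 counts in all of them, and Sox10, Mlana and Dct never passed 0.115 CPM. Pmel, a melanosome protein gene, lay at 0 to 0.625 CPM. The labelled cell type thus had Mitf, with the pigment genes absent or near the limit of detection.

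The family is grouped by protein sequence. Class I holds biglycan (Bgn), decorin (Dcn) and asporin (Aspn), class II holds lumican (Lum), fibromodulin (Fmod), prolargin (Prelp) and osteomodulin (Omd), and class III holds osteoglycin (Ogn). Many of them bind collagen fibrils and set fibril spacing, decorin and biglycan bind TGF-β, and soluble biglycan can act as a ligand of Toll-like receptors. They are known mainly as products of fibroblasts, cartilage and bone.

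The positions are those of GENCODE on GRCm38. Bgn lies on chrX:73483602-73495933 (plus strand). Dcn (chr10:97479609-97518143) and Lum (chr10:97565128-97572703) are neighbours on the plus strand of chromosome 10. Aspn (chr13:49544443-49567565), Omd (chr13:49582462-49592822) and Ogn (chr13:49608046-49624501) follow each other on the plus strand of chromosome 13, and all 3 lie within Cenpp (chr13:49464023-49652785), a centromere protein gene of the minus strand. Fmod (chr1:134037254-134048277, plus strand) and Prelp (chr1:133910304-133921414, minus strand) lie on chromosome 1.

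Because 5-AZA-CdR acts on cytosine methylation at CpG sites, the 250 bases before the RefSeq start (GRCm38.p6) of Bgn and Ogn, whose changes the results turn on, are shown 5′ to 3′, with each CpG in capitals. The Bgn sequence is chrX:73483351-73483600 and the Ogn sequence is chr13:49607765-49608014, both on the plus strand.
Bgn: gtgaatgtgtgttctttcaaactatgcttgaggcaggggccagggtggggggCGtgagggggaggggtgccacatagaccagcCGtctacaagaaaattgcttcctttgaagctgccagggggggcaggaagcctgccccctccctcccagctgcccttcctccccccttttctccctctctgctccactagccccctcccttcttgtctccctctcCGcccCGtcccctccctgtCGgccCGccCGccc
Ogn: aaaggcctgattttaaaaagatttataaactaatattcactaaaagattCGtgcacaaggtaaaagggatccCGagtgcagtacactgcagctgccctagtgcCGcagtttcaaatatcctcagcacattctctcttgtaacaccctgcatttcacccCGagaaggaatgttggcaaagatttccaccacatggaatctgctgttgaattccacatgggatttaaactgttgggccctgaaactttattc
The Bgn sequence holds 7 CpG and the Ogn sequence 4, against a median of 6 over 32851 RefSeq windows of the same length. GC content was 64.4% in Bgn and 42.0% in Ogn, with a median of 52.4% over all windows. The letters TATAAA, searched on both strands, are in the Ogn sequence and not in that of Bgn, and 12.4% of all windows hold them. Of the 8 genes, 6 matched a window. The others among the 6 held 2 CpG (Aspn), 2 (Fmod), 5 (Prelp) and 1 (Omd). Methylation of these sites was not measured in the files used here.

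Bgn had the most counts of the 8 genes over the 12 libraries together, although not in each of them. In total RNA it was at 0.646 CPM with DMSO (11 counts, interval 0.323 to 1.16), 251 CPM after ADAR1i-124 (4421 counts, 244 to 258) and 227 CPM after 5-AZA-CdR (7865 counts, 222 to 233). In J2 RNA it was at 71.1 CPM with DMSO, 8.96 after ADAR1i-124, 0.0752 after 5-AZA-CdR (1 count) and 17.8 with both. In Z22 RNA it was at 39.1 CPM with DMSO, 28.9 after ADAR1i-124, 0.490 after 5-AZA-CdR (4 counts) and 19.2 with both. The IgG library held 11.0 CPM. DMSO was thus the lowest of the total RNA libraries and the highest of each precipitation, and 5-AZA-CdR, near the top in total RNA, was the lowest of each precipitation. In the order of all 12 levels, most neighbours were apart by more than counting error. The intervals overlapped between both combination libraries, between IgG and J2 with ADAR1i-124, and among the 3 lowest libraries, which were total RNA with DMSO, Z22 with 5-AZA-CdR and J2 with 5-AZA-CdR.

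**Figure D1:**
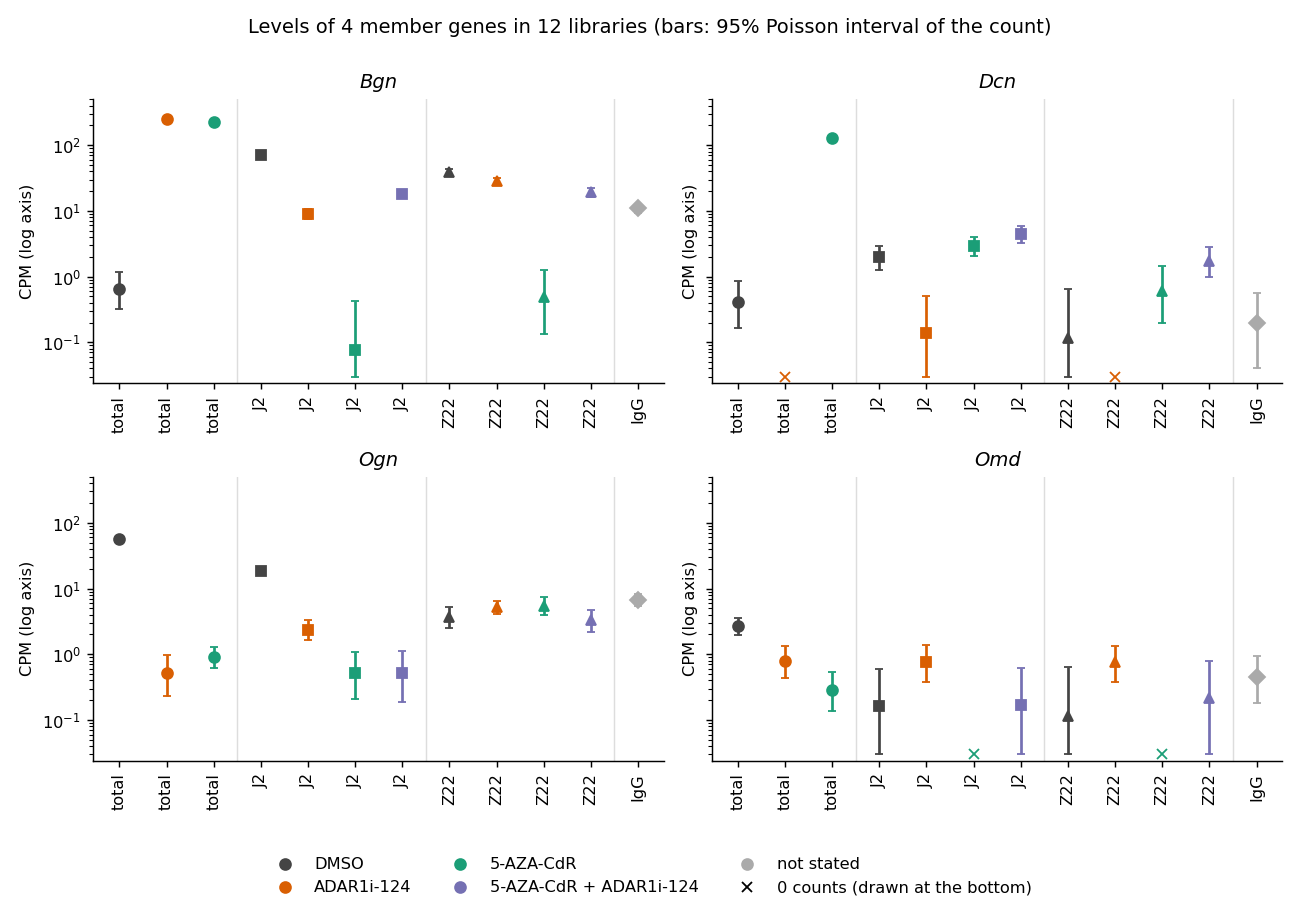
CPM on a log axis of Bgn, Dcn, Ogn and Omd in 12 libraries, 1 point per library, ordered by fraction (total, J2, Z22, IgG) and coloured by treatment; bars are 95% Poisson intervals of the count, and crosses at the bottom mark 0 counts. Bgn was at 0.646 CPM in total RNA with DMSO against 251 and 227 CPM with the drugs, whereas in J2 and Z22 RNA the DMSO libraries, at 71.1 and 39.1 CPM, were the highest.

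The fold change of Bgn in total RNA was 388 with ADAR1i-124 against DMSO (217 to 778). On the log2 scale with 0.5 CPM added it was 7.78, the highest of 13693 genes whose mean of both libraries reached 1 CPM. With 5-AZA-CdR the fold was 352 (197 to 705) and the log2 change 7.64, rank 3 from the top of 14391 genes. Both changes rest on the same DMSO library. Between the ADAR1i-124 and the 5-AZA-CdR libraries of total RNA, Bgn differed by 1.10-fold (1.06 to 1.14).

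In the precipitated RNA, which the choice of the genes did not use, Bgn went the other way. With ADAR1i-124 it was 7.93-fold lower than with DMSO in J2 RNA (6.59 to 9.62) and 1.35-fold lower in Z22 RNA (1.17 to 1.56). With 5-AZA-CdR it was 945-fold lower in J2 RNA, where 1 count gives an interval of 169 to 37376, and 79.8-fold lower in Z22 RNA (30.9 to 294). These were rank 2 and rank 3 from the bottom of 14007 and 13716 genes. With both drugs Bgn was 3.98-fold (3.42 to 4.65) and 2.03-fold (1.69 to 2.45) lower than with DMSO. Against 5-AZA-CdR alone, the libraries with both drugs held 237-fold more Bgn in J2 RNA (42.1 to 9417) and 39.3-fold more in Z22 RNA (15.1 to 146), rank 1 and rank 3 from the top. Bgn thus stood near an end of the order of all genes in total RNA and in both precipitations with 5-AZA-CdR, but with opposite sign.

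Within a treatment the fractions were far apart. In DMSO cells the J2 library held 110-fold more Bgn in CPM than total RNA (61.1 to 221) and the Z22 library 60.4-fold more (33.4 to 122). In 5-AZA-CdR cells the Z22 library held 0.00215 times the Bgn of total RNA (0.000586 to 0.00551). By library totals the J2 library was 1.82-fold above the Z22 library with DMSO (1.60 to 2.07). This ratio depends on the scaling. TMM factors, which were 0.970 for J2 and 0.595 for Z22 with DMSO, bring both levels closer together. The Z22 library was 3.23-fold above the J2 library with ADAR1i-124 (2.64 to 3.96) and did not differ from it beyond counting error with both drugs (1.08-fold, 0.877 to 1.32). Compared with IgG, J2 with DMSO held 6.45-fold more Bgn (5.46 to 7.65) and Z22 with DMSO 3.54-fold more (2.94 to 4.29), but J2 with ADAR1i-124 held 0.813 times the IgG level (0.641 to 1.03). With 5-AZA-CdR both precipitations were below IgG, J2 by 147-fold (26.0 to 5826, from 1 count) and Z22 by 22.5-fold (8.63 to 83.6).

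Decorin, the class I gene nearest to biglycan in structure, was seen mainly in 1 library. Dcn was at 129 CPM in total RNA with 5-AZA-CdR (4473 counts), 0.411 CPM with DMSO (7 counts) and at 0 counts with ADAR1i-124, although Bgn was high with both drugs. The fold against DMSO was 315 with 5-AZA-CdR (153 to 783), rank 6 from the top. In J2 RNA Dcn was at 1.97 CPM with DMSO, 0.139 after ADAR1i-124, 2.93 after 5-AZA-CdR and 4.42 with both drugs. In Z22 RNA it was at 0.115 CPM (1 count), 0, 0.612 (5 counts) and 1.75 CPM in the same order. Among the precipitated libraries Dcn was highest with both drugs and lowest with ADAR1i-124 alone in each fraction. J2 with ADAR1i-124 was 14.2-fold below J2 with DMSO (3.52 to 124), whereas the intervals of the other neighbouring levels overlapped. J2 with 5-AZA-CdR differed from J2 with DMSO by 1.49-fold, with an interval that spans 1 (0.873 to 2.59), and held 0.0227 times the Dcn of its total RNA library (0.0161 to 0.0310). Per kilobase of exon, the 5-AZA-CdR total RNA library held 37.3 CPM of Bgn and 22.2 CPM of Dcn. Aspn, which encodes a collagen-binding protein with a run of aspartates, had 13 counts over the 12 libraries, no more than 4 in any of them.

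Of the class II genes, Lum and Prelp were detected in total RNA with 5-AZA-CdR and not in the other total RNA libraries. Lum, a collagen-spacing proteoglycan of cornea and skin, had 35 counts there (1.01 CPM) and 0 in the other 11 libraries, at least 5.74-fold higher than the limit of 3 counts in DMSO. Prelp, which links basement membrane to collagen, had 38 counts there (1.10 CPM), at least 6.23-fold higher, 7 in Z22 RNA with 5-AZA-CdR and 3 in J2 RNA with DMSO. Fmod, which modulates collagen cross-linking, was at 0 counts in all 12 libraries, where the upper limits of the intervals were 0.107 to 0.452 CPM. Lum and Dcn are neighbours, 46985 bases apart, and both were highest in total RNA with 5-AZA-CdR. Kera, the keratocan gene after Lum, was at 0 in all 12 libraries.

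Omd, a bone proteoglycan of class II, was low and, as its neighbour Ogn, highest in total RNA with DMSO. It was at 2.64 CPM with DMSO (45 counts), 0.795 after ADAR1i-124 (14 counts) and 0.289 after 5-AZA-CdR (10 counts). The level with DMSO was 3.33-fold above ADAR1i-124 (1.79 to 6.57) and 9.14-fold above 5-AZA-CdR (4.54 to 20.3). In the precipitated libraries Omd had 0 to 11 counts, with 11 in both ADAR1i-124 libraries and no more than 2 in the other J2 and Z22 libraries. Cenpp, which spans Omd on the other strand, was also highest with ADAR1i-124 in each precipitation. With DMSO, ADAR1i-124, 5-AZA-CdR and both drugs it was at 2.05, 8.47, 2.18 and 2.21 CPM in J2 RNA. In Z22 RNA it was at 0.687, 7.23, 3.31 and 0.109 CPM. Its part in the Omd counts was not tested.

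Ogn, the class III gene, was at 57.1 CPM in total RNA with DMSO (971 counts), 0.511 after ADAR1i-124 (9 counts) and 0.897 after 5-AZA-CdR (31 counts). In J2 RNA it was at 18.2 CPM with DMSO, 2.36 after ADAR1i-124, 0.526 after 5-AZA-CdR and 0.510 with both. In Z22 RNA it was at 3.67, 5.25, 5.51 and 3.28 CPM in the same order, and in IgG RNA at 6.72 CPM. DMSO was thus the highest library in total and in J2 RNA, whereas the intervals of neighbouring Z22 levels overlapped. In total RNA, Ogn was 112-fold lower with ADAR1i-124 (58.6 to 245), rank 17 from the bottom, and 63.6-fold lower with 5-AZA-CdR (44.5 to 94.2), the lowest of all genes. The total RNA libraries of both drugs did not differ beyond counting error, with a ratio of ADAR1i-124 to 5-AZA-CdR of 0.570 (0.239 to 1.23).

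For Ogn the J2 libraries moved in the same direction as total RNA. Against J2 with DMSO it was 7.72-fold lower with ADAR1i-124 (5.36 to 11.4), 34.6-fold lower with 5-AZA-CdR (16.5 to 87.1) and 35.7-fold lower with both drugs (16.2 to 98.4), rank 2 from the bottom of 14158 genes for the last. In Z22 RNA the ratio to DMSO was 1.43 (0.937 to 2.24), 1.50 (0.934 to 2.44) and 0.895 (0.525 to 1.52), and all 3 intervals span 1. Against 5-AZA-CdR alone, Z22 with both drugs was 1.68-fold lower (1.04 to 2.76). The level in Z22 and IgG RNA thus stayed within 3.28 to 6.72 CPM in 5 libraries.

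Counted against a 4-fold line among genes whose mean reached 1 CPM, few of the 8 genes could be read. In total RNA with ADAR1i-124, 3 of the 8 passed the minimum, of which 1 was past the line upwards (Bgn) and 1 downwards (Ogn), beside 3.93% of all genes in either direction. With 5-AZA-CdR 4 passed, with 2 up (Bgn, Dcn) and 1 down (Ogn), beside 7.74%. Nothing is read from these counts, since these contrasts chose the genes. Omd lay just inside the line with 5-AZA-CdR, at -1.99 on the log2 scale. It was past it with a pseudocount of 0.1 CPM (-2.82), with totals that omit the 20 most counted genes (-2.03) and with protein-coding genes only (-2.005). In J2 RNA Bgn and Ogn were past it downwards with ADAR1i-124 (all genes 3.53% in either direction, 2.71% downwards) and with 5-AZA-CdR (3.99% and 0.971%). Dcn lay just inside the line with ADAR1i-124, at -1.95, and was past it with a smaller pseudocount of 0.1 CPM (-3.11), with protein-coding genes only (-2.28) and with totals that omit the 20 most counted genes (-2.28). With both drugs Ogn was past it downwards and Bgn, at -1.96, just inside it (3.26% in either direction, 0.438% downwards). Between both drugs and 5-AZA-CdR alone, Bgn was past the line upwards (0.24% in either direction, 0.211% upwards). In Z22 RNA no member was past it with ADAR1i-124 (14.1% in either direction) or with both drugs against DMSO (15.3%). Bgn was past it downwards with 5-AZA-CdR (20.9% in either direction, 0.926% downwards) and upwards with both drugs against 5-AZA-CdR (1.33% and 0.369% upwards).

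The large shares in Z22 RNA go with 1 library. In Z22 RNA with DMSO, Gm42418, a gene that overlaps ribosomal RNA sequence, took 34.9% of the counts, against 10.6 to 18.9% in the other precipitated libraries, and the median log2 change of all genes against it was 0.81, 1.06 and 0.82 for ADAR1i-124, 5-AZA-CdR and both drugs. These shares depend on the scaling. With TMM factors they were 7.37%, 9.24% and 8.87% for ADAR1i-124, 5-AZA-CdR and both drugs against DMSO. Of the genes past the line, 93.3%, 95.6% and 93.3% were higher than with DMSO by library totals, against 60.0%, 59.6% and 66.0% with TMM factors and 43.3%, 52.6% and 57.2% with DESeq2 size factors. For both drugs against 5-AZA-CdR 27.7% were higher by library totals, 41.1% with TMM and 40.2% with DESeq2 size factors. Relative to the medians given above Bgn stood at -1.24, -6.38 and -1.82, and Ogn at -0.35, -0.53 and -0.96. The sign of the Ogn change in Z22 RNA therefore depends on the scaling for ADAR1i-124 and for 5-AZA-CdR, while Bgn was below DMSO both before and after it.

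J2 RNA was compared with Z22 RNA over the 4 treatments by edgeR's quasi-likelihood test with the treatment as block, a test added after the data were seen. The treatments stand in for replicates there, and both precipitations of a treatment may share its RNA. Of 13898 genes whose mean reached 1 CPM, 0 (0%) had an adjusted p below 0.05, while 3062 had an unadjusted p below it and DESeq2 called 915. Of the 8 members 3 could be tested. Dcn was higher in J2 than in Z22 RNA in 4 of 4 treatments, by 2.0 on the log2 scale (SE 0.49, adjusted p = 0.103 by edgeR). Bgn and Ogn were lower in J2 RNA in 3 of 4 treatments, with log2 differences of -0.69 (SE 0.35, adjusted p = 0.276 by edgeR) and -1.18 (SE 0.72, adjusted p = 0.351 by edgeR). Without the DMSO pair, 849 of 14059 genes passed, with Ogn as 1 of 3 members tested, at -2.16 (adjusted p = 0.0424 by edgeR).

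**Figure D2:**
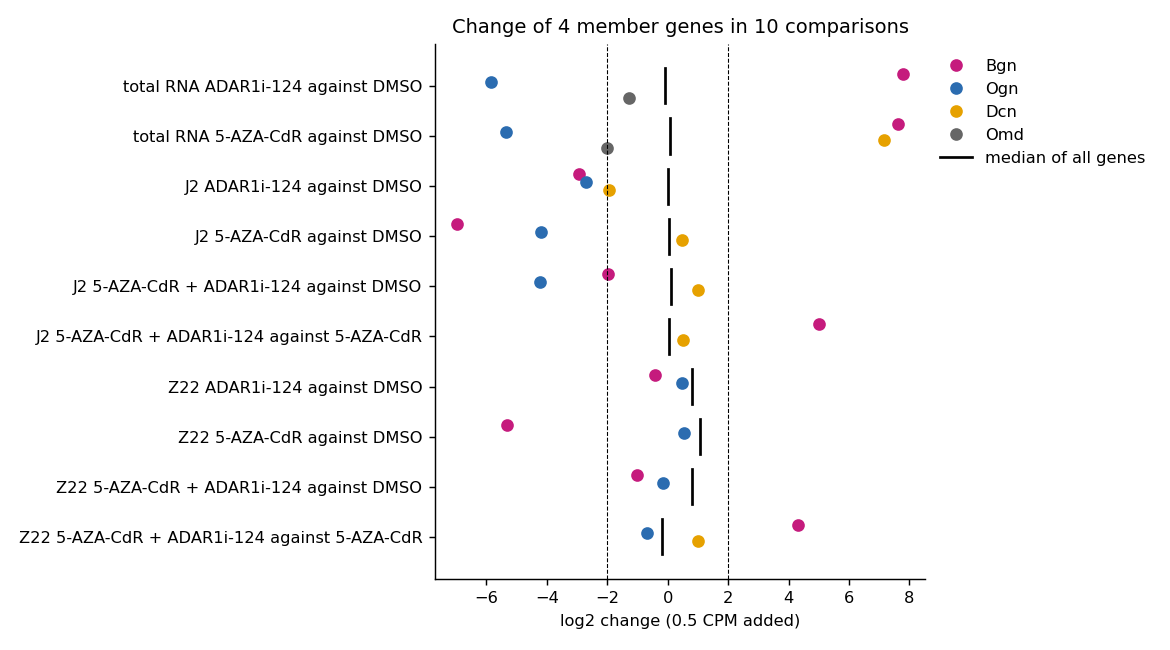
Log2 change with 0.5 CPM added (horizontal axis) of Bgn, Ogn, Dcn and Omd in 10 comparisons (rows), 1 library against 1, shown where the mean reached 1 CPM; black bars mark the median of all genes and dashed lines a 4-fold change. Bgn lies at 7.78 and 7.64 in total RNA but at -2.92 and -6.96 in J2 RNA, and Ogn lies left of the median of all genes in every comparison in which it is drawn.

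**Figure D3:**
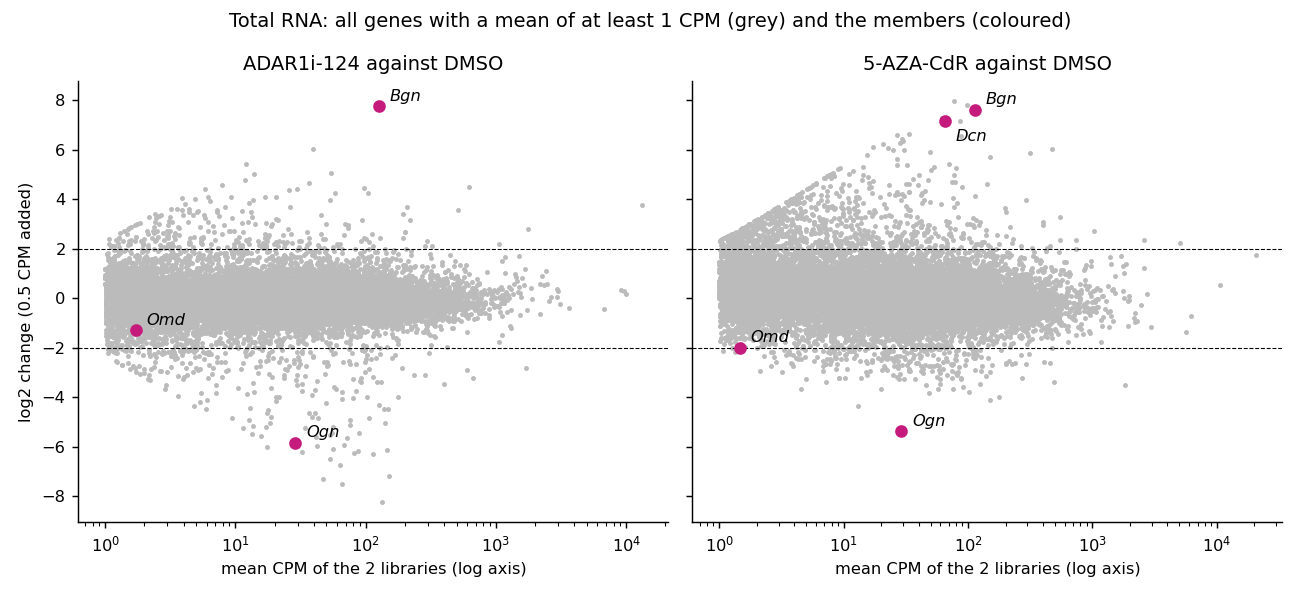
Log2 change against mean CPM (log axis) for every gene whose mean reached 1 CPM in total RNA, with ADAR1i-124 on the left and 5-AZA-CdR on the right, each against DMSO; the members are coloured and dashed lines mark a 4-fold change. Bgn is the highest point on the left and Ogn the lowest on the right.

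Whether these levels follow the treatment or the culture of cells behind a library was looked at with 4 Y-linked genes (Ddx3y, Kdm5d, Uty and Eif2s3y), which male cells carry on a chromosome that lines in culture can lose. Their summed level in total RNA was 6.46 CPM in DMSO cells, 106 after ADAR1i-124 and 89.1 after 5-AZA-CdR. In J2 RNA it was 56.6 CPM in DMSO cells, 2.71 after ADAR1i-124, 3.16 after 5-AZA-CdR and 9.60 after both. In Z22 RNA it was 30.1, 13.9, 0.122 and 6.01 CPM in the same order, and in IgG RNA 20.5 CPM. Between the fractions of 1 treatment the sum differed by up to 8.76-fold in DMSO cells, 39.0-fold after ADAR1i-124 and 727-fold after 5-AZA-CdR, where the Z22 library held 1 count, and by 1.60-fold between J2 and Z22 RNA of the combination. DMSO was lowest in total RNA and highest in each precipitation, as for Bgn.

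Ddx3y, an RNA helicase gene, was the highest of the 4 in total and J2 RNA, with 3.35, 48.9 and 36.7 CPM in total RNA and 26.3, 1.46, 1.35 and 5.01 CPM in J2 RNA. Of the Y-linked genes whose mean reached 1 CPM, 3 of 3 and 4 of 4 were past 4-fold upwards in total RNA with ADAR1i-124 and 5-AZA-CdR, and 3 of 3 were past it downwards in each J2 library of a drug against J2 with DMSO. Of these genes in Z22 RNA against DMSO, 0 of 3 were past the line with ADAR1i-124, 2 of 2 downwards with 5-AZA-CdR and 2 of 3 downwards with both drugs. Over all genes 1.88% and 5.98% were past it upwards in total RNA with ADAR1i-124 and 5-AZA-CdR. Downwards, with ADAR1i-124, 5-AZA-CdR and both drugs, 2.71%, 0.971% and 0.438% were past it in J2 RNA and 0.945%, 0.926% and 1.02% in Z22 RNA. Eif2s3y was at 0 in 8 of the 12 libraries, among them total RNA with ADAR1i-124, where the summed level was highest, and the 4 libraries that held it (total and J2 RNA with 5-AZA-CdR, J2 and Z22 RNA with both drugs) were all from cells given 5-AZA-CdR. The ratio of Bgn to the summed Y-linked level was 0.538 to 4.0 in 10 libraries, and 0.10 in total RNA with DMSO and 0.0238 in J2 RNA with 5-AZA-CdR. Across the 12 libraries the Pearson r of log2(CPM + 0.5) was 0.87 between Bgn and Kdm5d, 0.86 for Ddx3y and 0.82 for Uty. Set against the 8889 genes averaging 10 CPM or more, these values took rank 7, 8 and 15. The 12 points share treatments and precipitations and may share RNA pools, so these values are a description. The fourth, Eif2s3y, had an r of 0.35 with Bgn. This took rank 830 against the 8889 genes, to which Eif2s3y, at most at 2.02 CPM, does not belong. For Ogn the r was -0.10, -0.10 and -0.18 with Kdm5d, Ddx3y and Uty, and -0.45 with Eif2s3y. The share of culture in the Bgn change was not tested, and with 1 library per condition treatment and culture cannot be told apart.

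**Figure D4:**
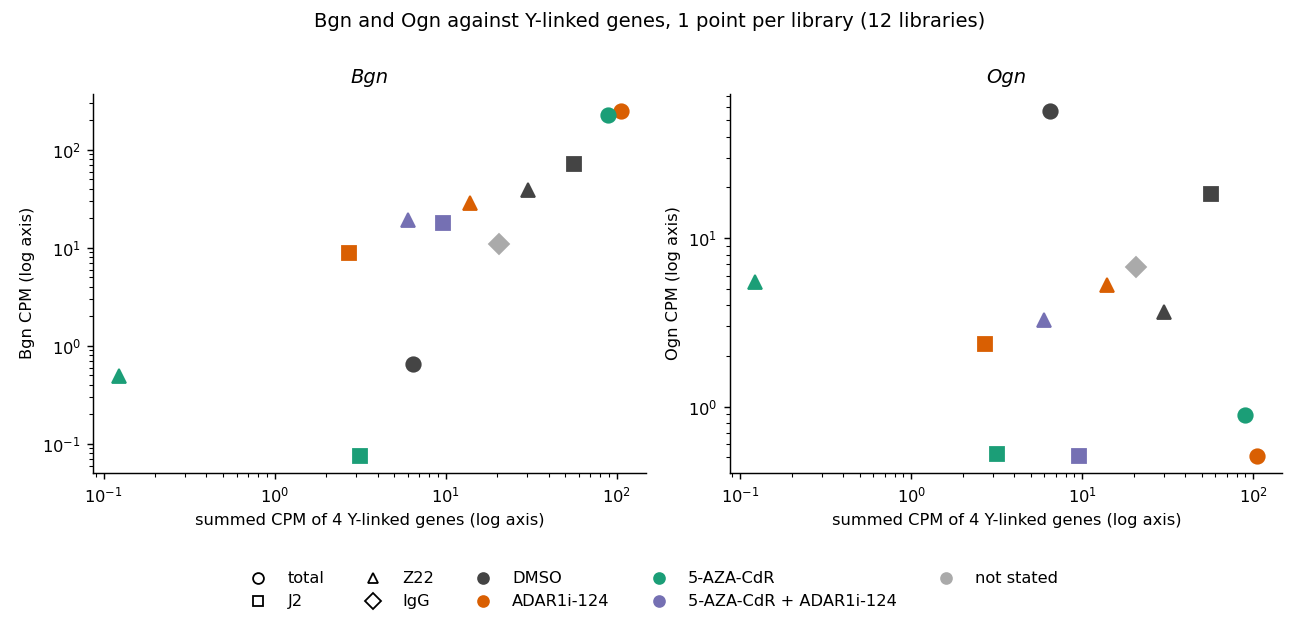
CPM of Bgn (left) and Ogn (right) against the summed CPM of 4 Y-linked genes, both on log axes, 1 point per library for 12 libraries; shapes give the fraction and colours the treatment. Bgn and the Y-linked sum are both highest in total RNA with ADAR1i-124 (251 and 106 CPM) and with 5-AZA-CdR (227 and 89.1 CPM), whereas Ogn is highest at a Y-linked sum of 6.46 CPM.

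By the same r, the genes most like Bgn, among those averaging 10 CPM or more, were Rasgrf1 (0.95), a Ras exchange factor, Grb10 (0.95), an insulin receptor adaptor, Map1a (0.94), a microtubule protein, Col4a1 (0.93), a basement membrane collagen, and Crabp1 (0.91), a retinoic acid binding protein. Those most like Ogn were Tenm4 (0.89), a teneurin, Lss (0.88) and Pmvk (0.87), enzymes of sterol synthesis, Pcyt2 (0.85), an enzyme of phosphatidylethanolamine synthesis, and Ica1 (0.83). The r between Bgn and Ogn was -0.29, between Bgn and Dcn 0.25, and between Ogn and Omd 0.49.

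In total RNA the chromosome neighbours of Bgn and Ogn moved less. Before Bgn, Haus7, a spindle gene, was at 26.6, 10.7 and 7.69 CPM in total RNA with DMSO, ADAR1i-124 and 5-AZA-CdR, and after it Atp2b3, a calcium pump gene, never passed 0.219 CPM in the 12 libraries. Nol8, which follows Ogn, was at 52.2, 52.4 and 25.5 CPM in total RNA. Cenpp, which spans Ogn on the other strand, was at 10.2, 6.98 and 1.33 CPM. Cenpp was below Ogn in total RNA with DMSO and above it with ADAR1i-124. In Z22 RNA it moved more than Ogn, with log2 changes against DMSO of 2.70 with ADAR1i-124 and 1.68 with 5-AZA-CdR.

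Among 10 further genes of the family, 2 or 3 reached a mean of 1 CPM in each comparison, none past 4-fold in total RNA and J2 RNA. In Z22 RNA Nyx, the nyctalopin gene, named after its values were seen, was at 0 counts with DMSO, 0.367 CPM after 5-AZA-CdR and 4.05 CPM after both drugs, past 4-fold upwards against each. Of 28 genes that build and sulfate the chondroitin, dermatan and keratan chains of these proteins, 21 were read in both total RNA comparisons, with 1 past 4-fold upwards with ADAR1i-124 (Chpf, a chondroitin polymerizing factor, 15.2 to 70.3 CPM) and 2 with 5-AZA-CdR. These were Xylt1, which starts the chains (10.1 to 53.0 CPM), and Chst1, a keratan sulfotransferase (8.99 to 41.2 CPM). None was past it in J2 RNA. Over all genes in total RNA, 1.88% were past the line upwards and 2.05% downwards with ADAR1i-124, and 5.98% upwards and 1.76% downwards with 5-AZA-CdR, the shares against which the total RNA counts of the lists are read. With 1 and 2 of 21 the chain genes lie near them. The median log2 change of the list was 0.30 and 0.75 in total RNA, against -0.09 and 0.06 over all genes.

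The collagens and other matrix proteins that these proteoglycans bind moved more. Of 23 such genes, 6 of 18 read were past 4-fold upwards and 1 downwards with ADAR1i-124 in total RNA, beside 1.88% and 2.05% of all genes. With 5-AZA-CdR 10 of 20 were past it upwards, beside 5.98%. The median log2 change was 0.91 and 1.83, against -0.09 and 0.06 over all genes. With 5-AZA-CdR, Thbs2, a matricellular thrombospondin, went from 0.235 to 56.9 CPM, Lox, the collagen cross-linking oxidase, from 0.0588 to 15.7 CPM, Col1a1 from 3.88 to 44.0 CPM and Col6a2 from 1.94 to 23.7 CPM. With ADAR1i-124 Lox reached 5.11 CPM, whereas Col3a1, a fibrillar collagen, went from 1213 to 130 CPM. In J2 RNA the list went the other way for each single drug against DMSO, with 8 of 18 downwards with ADAR1i-124 and 9 of 18 with 5-AZA-CdR and none upwards, beside 2.71% and 0.971% of all genes downwards. In Z22 RNA 3 of 17 were downwards with ADAR1i-124 and 8 of 18 with 5-AZA-CdR, beside 0.945% and 0.926% of all genes downwards. With both drugs against DMSO 1 of 18 was upwards and 4 downwards in J2 RNA (all genes 2.83% and 0.438%), and 1 of 18 upwards and 8 downwards in Z22 RNA (14.2% and 1.02%). Between both drugs and 5-AZA-CdR alone, 2 of 18 were past the line upwards in J2 RNA (0.211%) and 2 of 19 in Z22 RNA (0.369%), with none downwards.

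A list of 12 genes held proteases that process or cleave these proteins and Pcolce, a protease enhancer. In total RNA 1 of 10 read was past 4-fold upwards with ADAR1i-124 and 3 of 10 with 5-AZA-CdR, beside 1.88% and 5.98% of all genes upwards. Mmp13, a collagenase, was at 1.82 CPM with DMSO, 39.5 after ADAR1i-124 and 10.4 after 5-AZA-CdR. Mmp9, a gelatinase, was at 5.82, 1.19 and 93.8 CPM, and Adamts4, an aggrecanase, at 22.3, 15.8 and 183 CPM. Unlike Bgn, Mmp9 and Adamts4 were also higher with 5-AZA-CdR than with DMSO in J2 RNA (5.75 to 20.3 CPM and 34.4 to 54.1 CPM) and in Z22 RNA (1.26 to 10.53 CPM and 22.2 to 52.8 CPM). In Z22 RNA the log2 change of Adamts4, 1.23, lay close to the median of 1.06 over all genes.

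Of 19 receptors and ligands tied to these proteoglycans, 2 of 18 and 3 of 19 were past 4-fold upwards in total RNA with ADAR1i-124 and 5-AZA-CdR, beside 1.88% and 5.98% of all genes upwards. Bmp2, a bone morphogenetic protein, was at 2.17 CPM with DMSO, 17.4 after ADAR1i-124 and 105 after 5-AZA-CdR, Nlrp3, an inflammasome sensor, at 0.588, 5.45 and 10.7 CPM, and Tgfb1 at 19.5, 52.8 and 138 CPM. Of 14 TGF-β target genes, 5 of 13 were past the line upwards with ADAR1i-124 and 2 of 12 upwards and 2 downwards with 5-AZA-CdR, read against the same shares. Tgfbi, a matrix protein, was at 0.705, 3.29 and 173 CPM, Pmepa1 at 5.82, 100 and 19.8 CPM, Tagln, a smooth muscle protein, at 1.18, 25.9 and 0.607 CPM, and Ccn2, a matricellular growth factor, at 106, 467 and 7.84 CPM in the same order. Ccn2 was thus above DMSO with one drug and below it with the other, which Bgn was not.

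**Figure D5:**
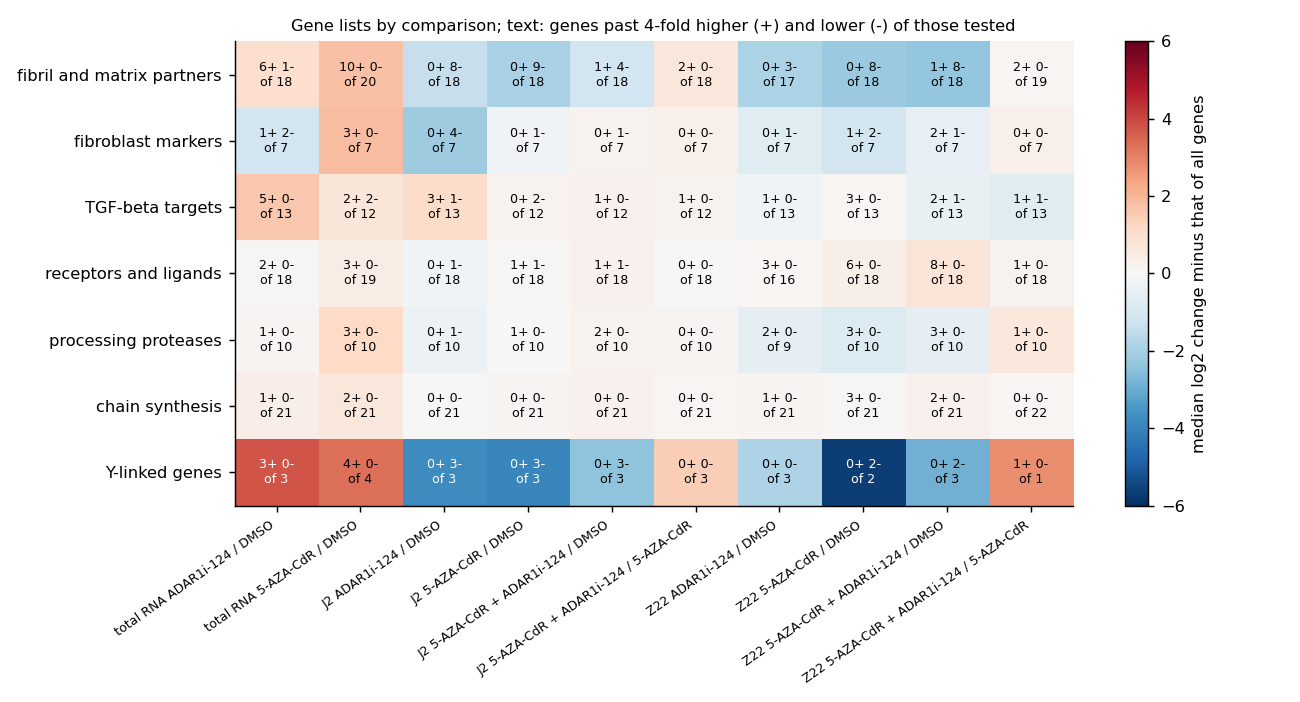
Median log2 change minus that of all genes (colour) of 7 gene lists (rows) in 10 comparisons of 1 library against 1 (columns); each cell gives the genes past 4-fold higher (+) and lower (-) of those whose mean reached 1 CPM. The matrix partners (6 and 10 genes higher in total RNA, 8 and 9 lower in J2 RNA) and the Y-linked genes have opposite signs in total RNA and in J2 RNA in the comparisons of a single drug against DMSO.

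Markers of cell types, among them cells that make these proteoglycans, were followed as lists. The total RNA counts of these lists are read against the shares over all genes. These were 1.88% upwards and 2.05% downwards with ADAR1i-124, and 5.98% and 1.76% with 5-AZA-CdR. Of 8 fibroblast markers, 1 was past 4-fold upwards and 2 downwards of 7 read with ADAR1i-124, and 3 upwards with 5-AZA-CdR. In J2 RNA none was past it upwards and 4 of 7 were past it downwards with ADAR1i-124, beside 2.71% of all genes downwards. With 5-AZA-CdR and with both drugs against DMSO 1 of 7 was past it downwards, beside 0.971% and 0.438% of all genes. Their summed level was 1584, 595 and 1909 CPM in total RNA, of which Col3a1 made 1213, 130 and 859 CPM, and 440 to 1510 CPM in the precipitated libraries, while Thy1, a defining marker, was at 0 in all 12. Pdgfra was at 5.23, 25.4 and 150 CPM in total RNA with DMSO, ADAR1i-124 and 5-AZA-CdR, and Pdgfrb at 169, 30.6 and 156 CPM. Of 8 bone or cartilage markers, 2 of 3 read were past the line with 5-AZA-CdR (Ibsp, a bone matrix protein, 0.529 to 17.7 CPM, and Sox9, the cartilage regulator, 19.3 to 121 CPM), with sums of 71.5, 104 and 203 CPM. Of 4 smooth muscle markers, 2 of 2 read were past it upwards with ADAR1i-124 and 1 of 1 downwards with 5-AZA-CdR. Acta2 was at 29.3, 386 and 3.41 CPM and Myh11, a defining marker, never passed 0.735 CPM. Leukocyte sums were 8.64, 20.04 and 79.3 CPM, nearly all Cd68, endothelial sums 4.06, 18.4 and 83.0 CPM, nearly all Cdh5, and keratinocyte sums 0.908 to 1.65 CPM in total RNA. In J2 RNA with DMSO, ADAR1i-124, 5-AZA-CdR and both drugs the leukocyte sums were 60.0, 6.95, 18.0 and 18.9 CPM, so that DMSO was lowest in total RNA and highest in J2 RNA, as for Bgn. In Z22 RNA they were 16.3, 13.8, 40.9 and 54.0 CPM, with DMSO not the highest. The endothelial sums in J2 RNA were 8.54, 3.75, 61.7 and 60.9 CPM, highest with 5-AZA-CdR as in total RNA. The part of these markers in the changes of Bgn, Dcn and Ogn was not tested.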

How the data were processed

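RNA of YUMM1.7 cells was sequenced in 13 libraries, 1 per condition. The authors mapped reads to GRCm38 with the snakePipes 2.8.0 workflow and deposited a single table of raw gene counts, without normalization. The counting tool and its strand setting are not given in the sources used here. Identifiers were matched without version to GENCODE M21, which named 54495 of 54532 genes. Counts were divided by the library total (CPM), and 0.5 CPM was added before log2. A gene was read where the mean of both libraries was at least 1 CPM and called past a 4-fold change. Counts got exact Poisson intervals and ratios exact binomial ones, both at 95%, and 3 counts were taken as the limit of detection. No test between treatments was run, since no condition was replicated; J2 was tested against Z22 RNA with edgeR's quasi-likelihood test (TMM, treatment as block, Benjamini-Hochberg adjustment).

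The genes and lists were chosen with earlier results of these data known. Named were all 8 members, up to 5 per list by size of change past 4-fold in total RNA, the neighbours on the chromosome, and the 5 genes with the highest r to Bgn and to Ogn among genes averaging 10 CPM or more, and marker genes of cell types, whose names were chosen with their values known. The calculations were tested on simulated data. Alternatives were TMM factors (edgeR 4.0.16), DESeq2 1.42.0 size factors, totals that omit the 20 most counted genes, other pseudocounts, filters and lines, and protein-coding genes only. Python 3.11.15, numpy 2.4.6, pandas 2.3.3 and scipy 1.17.1 were used. The total RNA library of the combination, with 1245894 counts, was left out of the comparisons. One gene that the naming rule selects is not reported here.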

Additional observations from a re-analysis of the deposited data

Results flagged for a closer look

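Bgn was flagged because it was past 4-fold in opposite directions in different fractions under the same contrast. With ADAR1i-124 against DMSO its log2 change was 7.78 in total RNA and -2.92 in J2 RNA. With 5-AZA-CdR against DMSO it was 7.64 in total RNA, -6.96 in J2 RNA and -5.32 in Z22 RNA. The difference between the fractions was not tested, since each value is 1 library against 1. The summed Y-linked level moved in the same directions, from 6.46 to 106 CPM in total RNA and from 56.6 to 2.71 CPM in J2 RNA with ADAR1i-124, and its part in the Bgn change was not tested.

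Aspn and Omd were flagged in the total RNA library of 5-AZA-CdR + ADAR1i-124, which no comparison used. Aspn was at 12.8 CPM there (16 counts) and Omd at 13.6 CPM (17 counts), above their intervals in total RNA with DMSO, where they were at 0.235 and 2.64 CPM. Ecm2, their neighbour, was at 40.1 CPM there and Bgn at 0 counts, where the limit of detection of 3 counts is 2.41 CPM. Ogn was at 28.1 CPM there (35 counts) and Cenpp at 36.1 CPM, against 57.1 and 10.2 CPM in total RNA with DMSO. The counts of this library follow the other strand, and Aspn, Omd, Ogn and Ecm2 lie opposite to Cenpp, so these levels are not read as expression of the genes.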

How the results depend on the processing

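With 1 library per condition, no replicate could be left out, and for the treatment contrasts no paired analysis was possible because no group has more than 1 library. Of 92 recounts of the members past 4-fold, 81 stayed within 1.5 times the first count. Among them was J2 RNA with ADAR1i-124, where 2 became 3 with Dcn at 4 settings. Another was total RNA with 5-AZA-CdR, where 3 became 4 with Omd at some settings. In J2 RNA with both drugs against DMSO the count was 2 in place of 1 with TMM factors, DESeq2 size factors, totals without the 20 genes, the 2-fold line and protein-coding genes only, the second gene being Bgn, which lies at the line. In Z22 RNA with both drugs against DMSO it was 1 in place of 0 with totals without the 20 genes, the 2-fold line and protein-coding genes only, and against 5-AZA-CdR it was 2 in place of 1 with the 2-fold line. Added after seeing the data, ADAR1i-124 against 5-AZA-CdR, which leaves out DMSO, gave 1 member (Dcn) in place of 2 in total RNA and 1 (Bgn) in place of 0 in Z22 RNA. Of 162 alternative values of single members, 142 stayed within counting error of the first, and 4 had the other sign, all for Ogn in Z22 RNA. With ADAR1i-124 its log2 change was 0.47 and became -0.15 (TMM) or -0.32 (DESeq2), and with 5-AZA-CdR it was 0.53 and became -0.35 or -0.45. No member past 4-fold changed direction under the 9 settings set out in the processing. In the comparison of J2 with Z22 RNA, added after seeing the data, 0 of the 3 members tested passed, also without the treatment as block, with DESeq2 size factors and with DESeq2, which gave no adjusted p for Dcn. Without the filter on low counts 2 of 6 members tested passed, beside 1474 of 31725 genes. The members were Dcn at 2.03 (adjusted p = 0.00414 by edgeR) and Ogn at -1.16 (adjusted p = 0.032 by edgeR). Leaving out 1 treatment gave 0 to 1 members, the 1 being Ogn without DMSO, beside 849 of 14059 genes. Without the block the Ogn difference was 0.12, of the other sign. Depth limits Aspn, Fmod, Lum and Prelp, whose levels were at or near the detection limit of 3 counts in most libraries.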
